A study of Homo sapiens with 24 samples.

Results

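The comparison addressed what TRAIL added to HT29 cells that were already exposed to a propionibacterial culture supernatant (SN). It was made between the 4 arrays of cells given TRAIL and SN together (TRAIL+SN) and the 4 arrays of cells given SN alone, chosen by the agent in their labels, so 8 of the 24 arrays of the series. HT29 is a single established human line from a colon adenocarcinoma. SN was the medium of a Propionibacterium freudenreichii culture, applied at a dilution of 2-fold for 6 h. TRAIL was a Flag-tagged ligand given for 6 h at 100 ng/ml with 2 µg/ml of the anti-Flag M2 antibody, which cross-links it, and the labels name that antibody only with TRAIL. The comparison was set beside the same step in the other backgrounds, namely TRAIL alone against untreated cells (NT), and TRAIL with a mixture of 30 mM propionate and 15 mM acetate (TRAIL+C3/C2) against that mixture alone (C3/C2). Each group had 4 arrays, and these 3 comparisons shared none. NT cells had 0 h of treatment, and the sources used here do not say when they were harvested, so time in culture cannot be told apart from TRAIL in the comparison with NT.

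TRAIL, a ligand of the TNF superfamily, binds the death receptors encoded by TNFRSF10A and TNFRSF10B. The bound receptors recruit the adaptor FADD and the initiator caspase CASP8 into a death-inducing signalling complex, which CFLAR can block. The same receptors can also engage the kinase complex that frees NF-κB from its inhibitors, and NF-κB then drives chemokine and cytokine genes together with genes of its own inhibitors, such as NFKBIA and TNFAIP3. In colon epithelium these chemokines are known for recruiting neutrophils and lymphocytes.

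The SN arrays all lay on 1 slide (slide 3) and the TRAIL+SN arrays all on another (slide 4), each slide with a scan time of its own, so slide and treatment cannot be told apart in this comparison. The 75th percentile of the signal was 724 to 798 intensity units on the SN arrays and 484.9 to 546 on the TRAIL+SN arrays. Values below are log2 signal minus that percentile, so a level of 0 means the array's 75th percentile. Within a group, arrays correlated at r = 0.993 to 0.996. In both groups replicates 1 and 2 lay close together, as did replicates 3 and 4. The median absolute log2 difference was 0.0880 to 0.0994 within those pairs and 0.146 to 0.179 across them, over 18042 genes above background on all 8 arrays. The study's methods give 2 independent experiments in duplicate, and the labels do not say which arrays belong to which, so the p-values measure the spread between arrays that may in part be technical duplicates. The colon epithelial markers EPCAM, KRT8, KRT18, KRT19, CDH1, VIL1, CDX2 and CEACAM5 were above background on all 8 arrays, and none changed by a fold of 2. Of the 7 leukocyte markers 6 passed the filter on dim probes, and of the 7 stromal and endothelial ones 4 did. None of these was called. CD14 and CD79A were the brightest of them, with SN means of 1.91 and 1.89, and PTPRC, the pan-leukocyte marker, stood at -4.22. CD3E, COL1A2, COL3A1 and DCN were too dim to be tested.

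Of 20700 genes tested, 188 rose with TRAIL in the presence of SN (0.908%) and 34 fell (0.164%). A call needed a difference of at least 2-fold together with an adjusted p below 0.05 (limma, Benjamini-Hochberg). By the adjusted p alone, 2522 genes were higher (12.2%) and 1626 lower (7.86%). The genes that rose were led by neutrophil and lymphocyte chemokines, TNF and other cytokines, and the subunits and inhibitors of NF-κB. Of the 188, 121 were above background on all 8 arrays, and in 173 all 4 TRAIL+SN arrays lay above all 4 SN arrays, against 13.9% of all genes tested. The 34 that fell were dim. Only 2 of them were above background on all 8 arrays, and 28 were not above background on any TRAIL+SN array. In 18 of the 34 all TRAIL+SN arrays lay below all SN arrays, against 8.91% of all genes tested. By a rule on symbols, 89 of the genes that rose and 22 of those that fell counted as named transcripts. The rule leaves out symbols beginning with BC or AK, so named genes such as BCL3 were counted as unnamed. The median difference over all genes was 0.02, with a median standard error of 0.11.

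**Figure D1:**
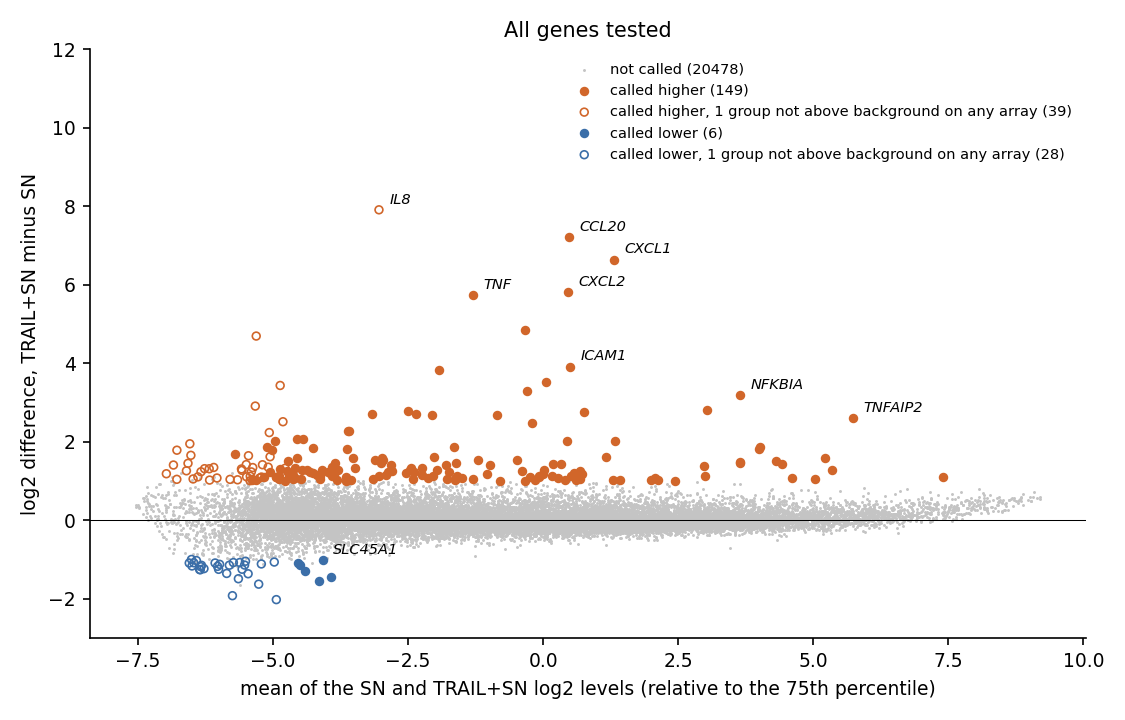
Each of the 20700 genes tested is plotted by its mean log2 level in SN and TRAIL+SN (horizontal axis, relative to the arrays' 75th percentile) and its log2 difference, TRAIL+SN minus SN (vertical axis). The 188 genes called higher are orange and the 34 called lower are blue, open where 1 group was not above background on any array. The rises reached 7.91 and the falls lay among dim genes.

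Scaling decided the balance of the calls. With arrays scaled to their spike-in probes, which were added at a set amount to each labelling, the median over all genes moved from 0.02 to -0.58, and 46 genes rose while 819 fell. Of the 188 genes that rose on the main scale those 46 were the ones that kept their call, among them all 6 chemokine genes called, TNF, NFKBIA, TNFAIP3 and ICAM1. The split was 84.7% higher among called genes on the main scale and 5.32% on the spike-in scale.

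The sequences that follow are the 250 bases before the annotated start of 8 genes among the largest rises, shown because NF-κB sites are known to lie in several of them. They are RefSeq sequences of the GRCh38.p14 build, written 5′ to 3′ in the direction of the gene. Capitals mark every match to GGAANNNCC or its other strand GGNNNTTCC, a 9-base pattern that covers many known NF-κB sites. A stretch that matches on both strands is marked as 1 run.
CXCL8 (IL8 on the array), chr4:73740319-73740568, plus strand: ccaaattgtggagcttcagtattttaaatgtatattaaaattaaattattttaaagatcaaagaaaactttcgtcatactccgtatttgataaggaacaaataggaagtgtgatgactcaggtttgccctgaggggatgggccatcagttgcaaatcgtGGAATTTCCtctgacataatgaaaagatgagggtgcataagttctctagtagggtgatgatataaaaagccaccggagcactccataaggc
CCL20, chr2:227813592-227813841, plus strand: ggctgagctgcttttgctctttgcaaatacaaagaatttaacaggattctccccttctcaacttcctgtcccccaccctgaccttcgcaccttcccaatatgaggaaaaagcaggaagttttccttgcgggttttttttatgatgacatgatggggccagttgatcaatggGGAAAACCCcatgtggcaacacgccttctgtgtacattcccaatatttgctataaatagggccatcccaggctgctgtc
CXCL1, chr4:73869143-73869392, plus strand: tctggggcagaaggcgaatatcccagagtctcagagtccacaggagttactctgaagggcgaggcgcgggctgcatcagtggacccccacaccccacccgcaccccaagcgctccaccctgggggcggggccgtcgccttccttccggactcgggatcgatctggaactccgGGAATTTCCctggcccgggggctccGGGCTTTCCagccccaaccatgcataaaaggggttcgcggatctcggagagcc
CXCL2, chr4:74099196-74099445, minus strand: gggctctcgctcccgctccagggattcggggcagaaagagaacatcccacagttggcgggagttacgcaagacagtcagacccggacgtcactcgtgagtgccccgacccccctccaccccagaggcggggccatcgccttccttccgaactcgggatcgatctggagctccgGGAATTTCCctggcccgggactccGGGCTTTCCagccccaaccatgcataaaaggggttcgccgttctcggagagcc
TNF, chr6:31575315-31575564, plus strand: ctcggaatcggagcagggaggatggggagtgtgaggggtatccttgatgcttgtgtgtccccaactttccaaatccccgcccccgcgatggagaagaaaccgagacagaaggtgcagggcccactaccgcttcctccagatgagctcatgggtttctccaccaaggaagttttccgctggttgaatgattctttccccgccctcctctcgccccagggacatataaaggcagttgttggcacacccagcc
ICAM1, chr19:10270870-10271119, plus strand: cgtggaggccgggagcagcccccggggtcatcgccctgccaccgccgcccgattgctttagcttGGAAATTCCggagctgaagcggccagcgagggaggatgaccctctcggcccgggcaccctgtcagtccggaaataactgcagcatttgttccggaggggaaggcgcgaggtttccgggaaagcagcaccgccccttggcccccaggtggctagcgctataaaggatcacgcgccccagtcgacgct
TNFAIP3, chr6:137867009-137867258, plus strand: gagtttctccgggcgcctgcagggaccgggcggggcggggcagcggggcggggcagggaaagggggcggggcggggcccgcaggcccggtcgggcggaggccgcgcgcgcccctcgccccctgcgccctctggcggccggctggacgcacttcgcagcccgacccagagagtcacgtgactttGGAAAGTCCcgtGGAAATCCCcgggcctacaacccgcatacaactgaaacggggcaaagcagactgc
NFKBIA, chr14:35404750-35404999, minus strand: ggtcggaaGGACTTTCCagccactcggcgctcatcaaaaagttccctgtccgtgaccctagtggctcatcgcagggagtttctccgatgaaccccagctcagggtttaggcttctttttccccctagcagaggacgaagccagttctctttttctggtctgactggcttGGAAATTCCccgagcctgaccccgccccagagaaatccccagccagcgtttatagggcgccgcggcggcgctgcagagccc
The pattern was found in 7 of these 8 windows and not in that of TNF. CXCL1 and CXCL2 shared the runs GGAATTTCC and GGGCTTTCC at almost the same distance from the start, and CXCL8 held GGAATTTCC as well. ICAM1 and NFKBIA shared GGAAATTCC. A match was held by 17.1% of the 27305 named promoters given by RefSeq, in a window of the same length. Among tested genes with a sequence it was 2280 of 11515 (19.8%). Among the genes that rose it was 33 of 69 (47.8%), and among those that fell it was 4 of 18 (22.2%). The counts are descriptive, since a match is not a bound site.

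The largest single rises were those of chemokine genes. Of 16 tested 6 were called higher (37.5%, against 0.908% of all genes) and none lower, with a median difference of 0.65 against 0.02 over all genes. The 6 were IL8 (now CXCL8), CCL20, CXCL1, CXCL2, CXCL3 and CXCL6. Apart from CCL20, which draws dendritic cells and T cells through CCR6, they encode attractants of neutrophils. IL8 (probe at chr4:74607982-74608041, hg19) was not above background on any SN array, where its levels were -6.05, -6.89, -7.64 and -7.38. On the TRAIL+SN arrays it read 0.93, 0.86, 0.95 and 0.93. The groups lay far apart, and IL8 was at least 85.1-fold higher with TRAIL, setting its TRAIL+SN mean against the higher, on each SN array, of its own signal and the dimmest signal called above background (adjusted p = 3.14e-13, limma). Its other probe was likewise below background in SN and gave a difference of 4.56.

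CCL20 (chr2:228681100-228681836) stood at -3.53, -3.25, -2.69 and -3.01 in SN. With TRAIL it stood at 4.24, 4.21, 3.96 and 3.95, a rise of 7.21 ± 0.23 (SE, n = 4 arrays a group), or 148-fold (adjusted p = 2.29e-15, limma). It was the largest rise among genes above background in both groups. CXCL1 (chr4:74736850-74736909) read -1.95, -1.83, -2.19 and -2.06 in SN and 4.98, 4.88, 4.32 and 4.35 in TRAIL+SN, a rise of 6.64 ± 0.14, or 99.7-fold. The 4 treated arrays formed close pairs, replicates 1 and 2 above replicates 3 and 4, and every one was above the SN arrays. CXCL2 (chr4:74962985-74963044) rose from a mean of -2.43 ± 0.05 (SD, n = 4) to 3.37 ± 0.22, a fold of 55.9, and its other probe gave a difference of 5.19. CXCL3 rose from -3.83 ± 0.37 to -0.01 ± 0.08, a fold of 14.1. CXCL1, CXCL2 and CXCL3 are close paralogs, and cross-hybridisation between them was not tested. CXCL6 was not above background on any SN array (levels -7.71 to -5.47) and lay between -4.90 and -4.42 with TRAIL, at least 1.81-fold higher. After normexp background correction CXCL6 differed by 0.70, under the fold limit. The other 10 chemokine genes tested were not called. Among these CX3CL1 differed by 0.68 (adjusted p = 0.0692, limma) and CCL28 by 0.62 (adjusted p = 0.0146), while CXCL5, CXCL16, CCL15 and CCL24 lay at -0.06, -0.06, -0.04 and -0.02.

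**Figure D2:**
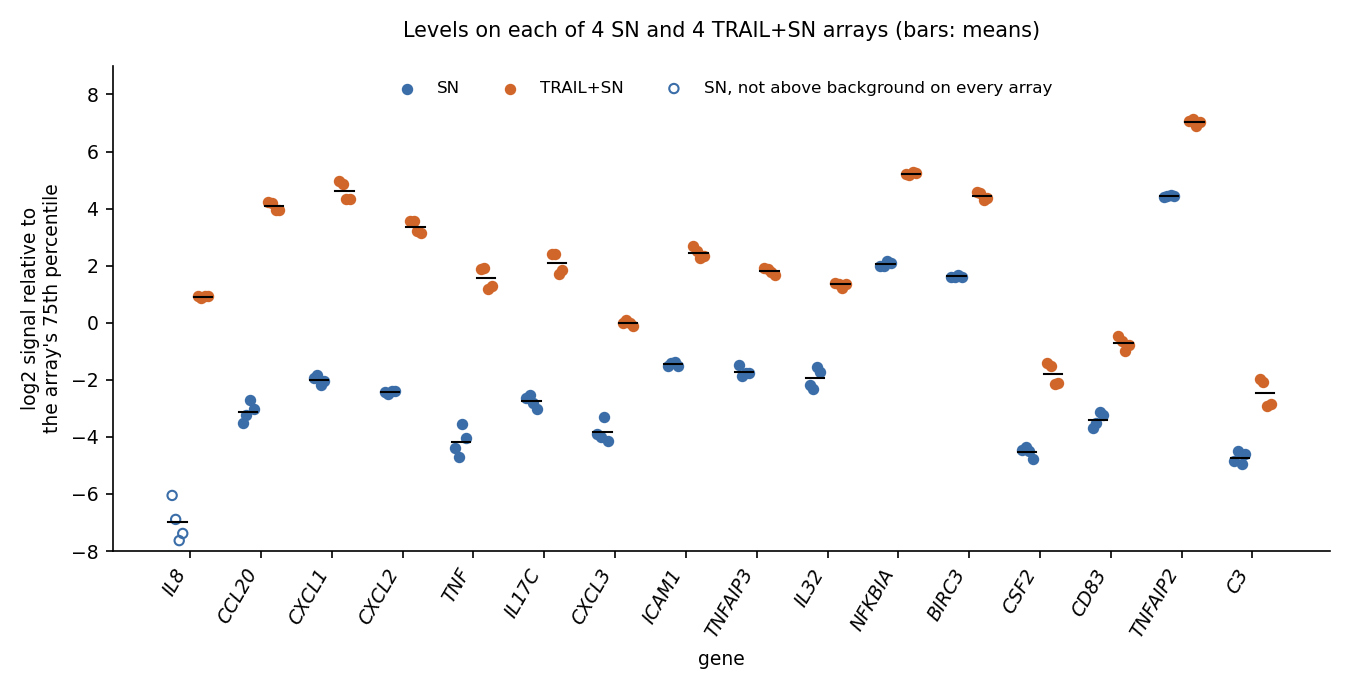
Log2 level of 16 genes relative to the array's 75th percentile (vertical axis) on each of the 4 SN arrays (blue) and 4 TRAIL+SN arrays (orange), with bars at the means and open points where a group was not above background on every array. In all 16 genes, picked among those called higher, the 4 TRAIL+SN arrays lay above the 4 SN arrays, and the gap was widest for IL8. The same held for 173 of the 188 genes called higher.

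Of 26 cytokine genes tested 8 rose (30.8%) and none fell, with a median difference of 0.42. TNF (chr6:31545837-31545896), which encodes the founding ligand of the TNF superfamily, read -4.40, -4.69, -3.56 and -4.03 in SN and 1.90, 1.90, 1.20 and 1.27 in TRAIL+SN. That was a rise of 5.74 ± 0.24, or 53.4-fold (adjusted p = 5.3e-13, limma), with the 2 groups far apart. IL17C, an epithelial cytokine that acts back on epithelial cells, rose from -2.76 ± 0.21 to 2.09 ± 0.37, a fold of 28.8. IL32 rose from -1.94 ± 0.36 to 1.34 ± 0.08, a fold of 9.73, and its other probe differed by 2.65. CSF2, which encodes the growth factor GM-CSF, read -4.44, -4.34, -4.49 and -4.79 in SN and -1.43, -1.52, -2.16 and -2.13 in TRAIL+SN, a fold of 6.53.

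LTB, a TNF-family gene whose product forms lymphotoxin with LTA, was not above background on any SN array and was at least 2.91-fold higher with TRAIL. IL23A, the specific subunit of interleukin 23, rose by 1.87 and IL1B by 1.45. With spike-in scaling IL1B differed by 0.86, under the fold limit. LIF rose by 1.01, and without SN replicate 2 or TRAIL+SN replicate 1 or 3 it fell short of the fold limit (0.97 to 1.00). Among the 18 cytokine genes not called, IL1A differed by 0.88 (adjusted p = 2.41e-06, limma) and IL18 by 0.00, so IL1A missed the fold and not the p.

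The NF-κB list held the subunits, their inhibitors and the enzymes that act on them, and 13 of its 31 tested members rose (41.9%) while none fell, with a median difference of 0.70. The largest rises of the list were those of TNFAIP3, NFKBIA and BIRC3. TNFAIP3, a ubiquitin-editing enzyme that shuts off NF-κB signalling, read -1.48, -1.85, -1.76 and -1.75 in SN and 1.92, 1.89, 1.77 and 1.69 in TRAIL+SN, a rise of 3.53 ± 0.09 or 11.5-fold (adjusted p = 1.27e-16, limma). NFKBIA (chr14:35870788-35870847), which encodes the inhibitor that holds NF-κB in the cytoplasm, read 1.99, 1.98, 2.15 and 2.08 against 5.22, 5.18, 5.27 and 5.24, a fold of 9.05. Its SD was 0.08 in SN and 0.04 in TRAIL+SN, far below the difference. BIRC3, a ubiquitin ligase that protects cells at the TNF receptor, rose from 1.63 ± 0.03 to 4.44 ± 0.14, a fold of 7.0. TNFAIP2, a TNF-induced gene, rose from 4.44 ± 0.02 to 7.03 ± 0.11, a fold of 6.03.

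NFKBIZ, an atypical nuclear IκB, rose by 2.01 ± 0.10, and its relatives BCL3 and NFKBIE by 1.49 ± 0.11 and 1.47 ± 0.05. Of the subunits, RELB rose by 1.80 ± 0.08, NFKB2 by 1.25 ± 0.10 and NFKB1 by 1.19 ± 0.05. REL differed by 0.89 (adjusted p = 1.21e-08, limma) and stayed under the fold limit, and RELA differed by 0.09 (adjusted p = 0.206). The kinases IKBKE and MAP3K8 rose by 1.27 and 1.14, and ZC3H12A, an RNase that degrades cytokine transcripts, by 1.02, which fell short of the fold limit without SN replicate 2 (0.96) or TRAIL+SN replicate 1 (1.00). With spike-in scaling 6 of the 13 stayed called and BCL3, NFKBIE, NFKB1, NFKB2, IKBKE, MAP3K8 and ZC3H12A fell below the fold limit, at 0.43 to 0.90.

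**Figure D3:**
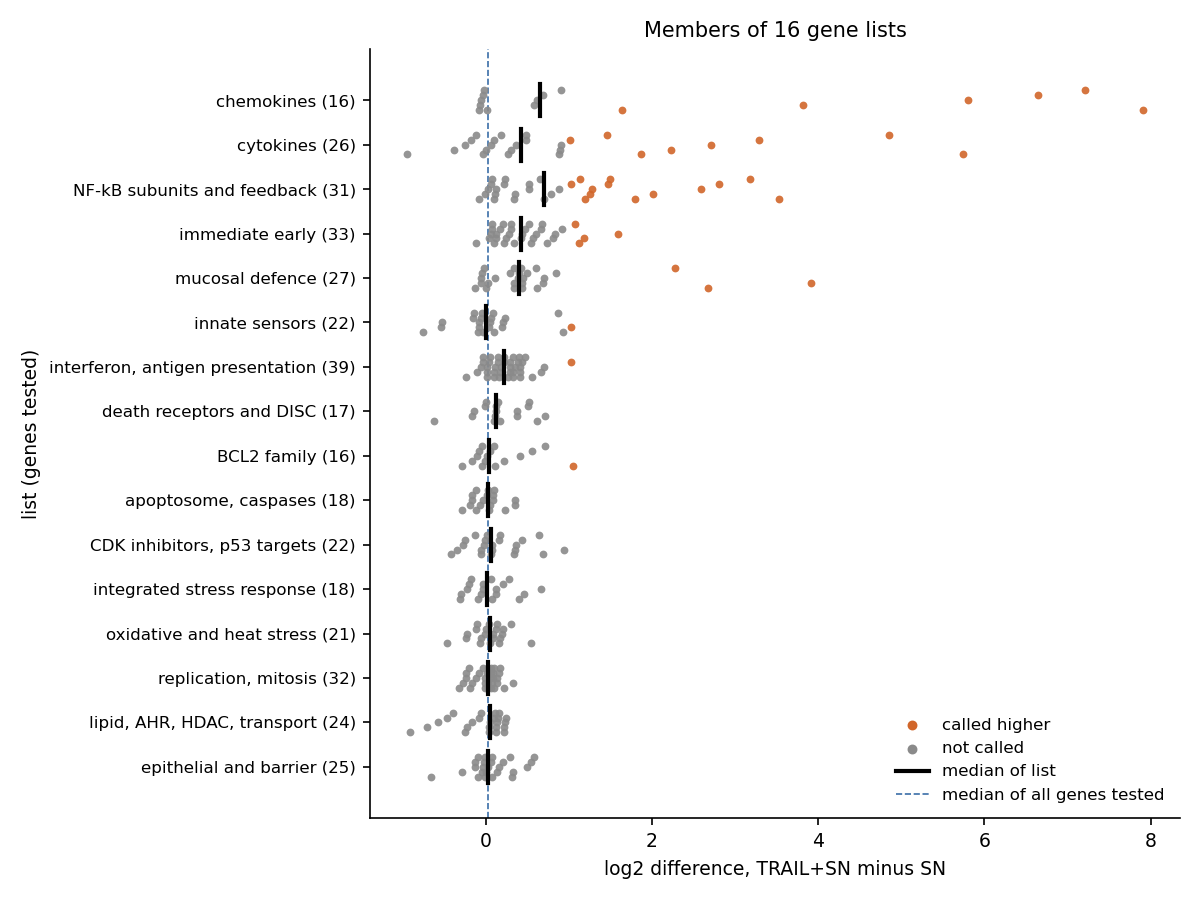
Log2 difference, TRAIL+SN minus SN (horizontal axis), of each tested member of 16 gene lists (rows, number tested in brackets), with called genes in orange, others in grey, the list median as a black bar and the median over all genes as a dashed line. Called members stood mainly in the chemokine, cytokine and NF-κB lists, and no member of any list was called lower.

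Of 27 mucosal defence genes tested 3 rose (11.1%). ICAM1, the endothelial and epithelial adhesion molecule that leukocytes bind, read -1.53, -1.43, -1.39 and -1.51 in SN and 2.68, 2.52, 2.26 and 2.35 in TRAIL+SN, a fold of 15.1 (adjusted p = 4.75e-17, limma). CD83, a marker of antigen-presenting cells, rose 6.38-fold and the gene of complement component C3 (not the propionate of the C3/C2 mixture) rose 4.86-fold, and both had no overlap between groups. The lipocalin LCN2 and the protease inhibitor SLPI differed by -0.05 and 0.00. Of 33 immediate early genes 4 rose (12.1%), with a median of 0.43. IER3, an NF-κB target that modulates cell death, rose by 1.59 ± 0.05 from 4.42 ± 0.02. FOSL1, an AP-1 subunit, rose by 1.18 ± 0.08 and ZFP36, which destabilises cytokine transcripts, by 1.07 ± 0.08. EGR1 was called at a difference of 1.12 ± 0.33, but its groups overlapped. It read 1.67, 1.55, 3.33 and 3.17 in SN and 3.07, 3.14, 4.05 and 3.95 in TRAIL+SN (exact permutation test, two-sided, p = 0.171, where 0.0286 is the smallest that 4 against 4 arrays allow). Replicates 3 and 4 were higher than 1 and 2 in both groups, and the call was lost with those pairs averaged (adjusted p = 0.256, limma) and without SN replicate 1 or 2 or TRAIL+SN replicate 3 or 4 (0.83 to 0.99). On the spike-in scale none of these 4 was called. ATF3 was not called at 0.68 on its brightest probe, and its other probes gave 1.02 (adjusted p = 0.00976, limma), 0.53 and 0.30.

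Of 22 innate sensor genes IRAK2, a kinase of the interleukin 1 and Toll-like receptors, was called (1.02), and of 39 interferon and antigen presentation genes IRF1, a transcription factor of that response, was called (1.02). Both lay at the fold limit and fell below it with median, spike-in or normexp processing. IRAK2 also did without SN replicate 2 (0.99), and IRF1 without SN replicate 3 or 4 or TRAIL+SN replicate 1 or 2 (0.96 to 1.00). Calls rest on the brightest probe of a gene. TAPBP, of the interferon and antigen presentation list, differed by 0.01 on that probe and by 0.94, 1.42 and 0.30 on others. The probe at 1.42 was not above background on any SN array. The chemokine CXCL10, a known interferon target, was not above background on any array of either group.

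In 3 lists of apoptosis genes 1 gene was called, beside 0.908% of all genes tested called higher and 0.164% called lower. No member of the death receptor and signalling complex list was called of 17 tested (limma), where 7 were higher and 3 lower at an unadjusted p under 0.05. None of 18 was called in the apoptosome and caspase list, where 1 was higher and 4 lower by that measure. Of 16 tested in the BCL2 family BBC3 was the 1 called. BBC3 encodes the BH3-only protein PUMA, which frees BAX and BAK1. It read 4.47, 4.40, 4.62 and 4.54 in SN and 5.59, 5.56, 5.58 and 5.50 in TRAIL+SN, a rise of 1.05 ± 0.08 or 2.07-fold (adjusted p = 7.32e-09, limma), with no overlap. It was 0.98 with median scaling and 0.45 with spike-in scaling, under the limit in both. The median over the 3 lists was 0.12 for death receptors, 0.03 for the BCL2 family and 0.02 for the apoptosome, beside 0.02 over all genes. By adjusted p alone, 5 death receptor, 5 BCL2 family and 1 apoptosome genes were higher, and 1 in each list was lower. Over all genes tested 12.2% were higher and 7.86% lower by that measure.

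**Figure D4:**
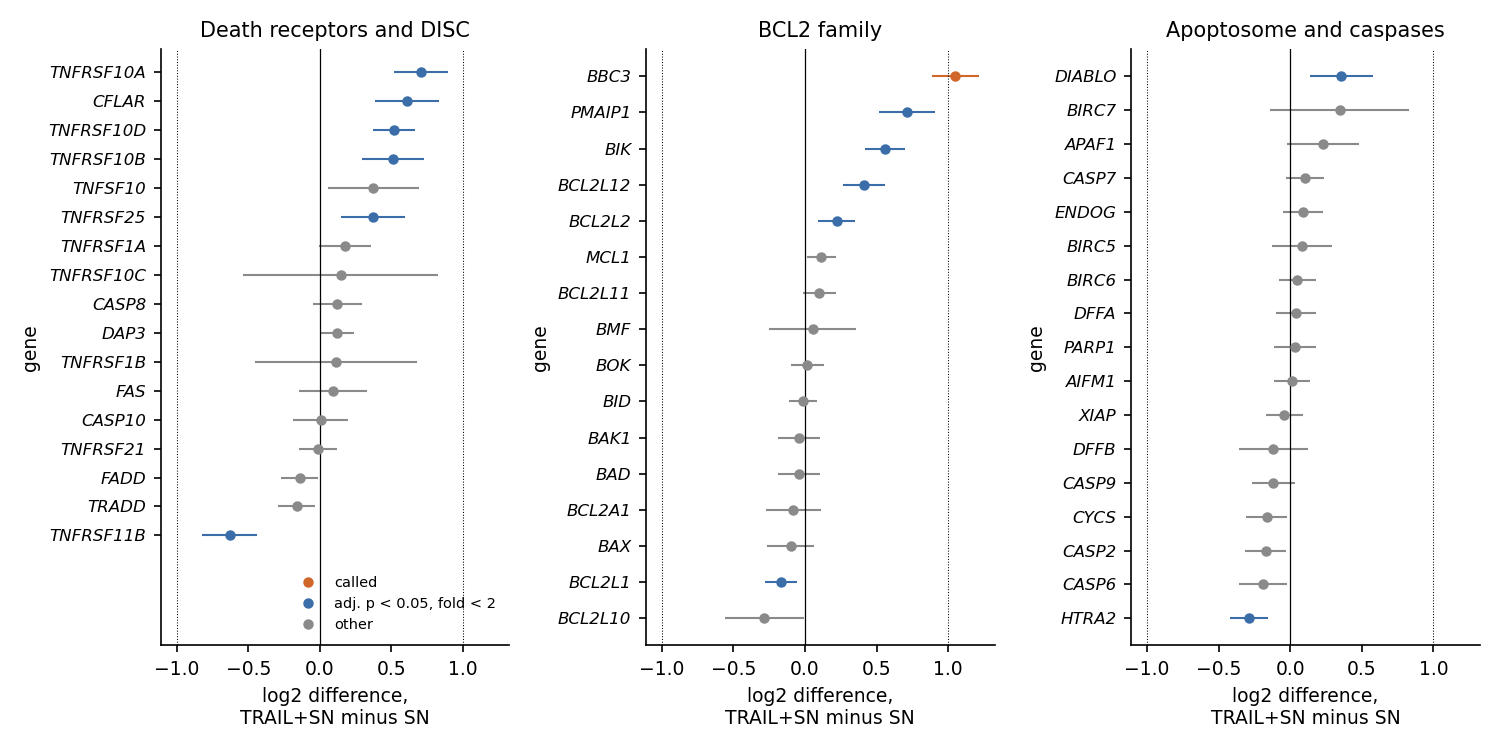
Log2 difference, TRAIL+SN minus SN, with its 95% interval from the fit (horizontal axis) for tested genes of the death receptor, BCL2 and apoptosome lists. Orange marks BBC3, the called gene, blue an adjusted p under 0.05 at a fold below 2, grey the rest, and dotted lines mark a fold of 2.

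Below the fold limit some receptor genes passed the p threshold. TNFRSF10A and TNFRSF10B, the receptors that carry the death signal of TRAIL, differed by 0.71 ± 0.09 (SE) and 0.51 ± 0.10, and the decoy receptor gene TNFRSF10D by 0.52 ± 0.07. TNFRSF11B, which encodes the soluble decoy osteoprotegerin, differed by -0.63 ± 0.09. All 4 had no overlap between groups. Of all genes tested, 13.9% had every TRAIL+SN array above the SN arrays and 8.91% had every one below. For TNFRSF10B the arrays read 4.18, 4.30, 4.16 and 4.16 in SN and 4.88, 4.89, 4.51 and 4.55 in TRAIL+SN. The direction of the smaller values depended on the scale. With spike-in scaling TNFRSF10A was at 0.11, TNFRSF10B at -0.09 and TNFRSF10D at -0.08, while TNFRSF11B was at -1.23 and was called.

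CFLAR, the brake on CASP8, differed by 0.61 ± 0.11 (adjusted p = 0.000487, limma) on its brightest probe, which read 0.22, 0.13, 0.12 and 0.35 in SN and 0.87, 0.99, 0.74 and 0.66 in TRAIL+SN. Its other probes gave 0.52, 0.27 and 0.21, and the brightest probe gave 0.01 with spike-in scaling. CASP8 differed by 0.12 (95% interval -0.05 to 0.29) on its brightest probe and by 0.54 on another. FADD differed by -0.14 (-0.27 to -0.01). In the BCL2 family the BH3-only genes PMAIP1 and BIK differed by 0.71 and 0.56, both with an adjusted p under 0.05 (limma), and BCL2L1, which encodes the survival protein BCL-XL, by -0.17 (adjusted p = 0.0322). The pore former BAX lay at -0.10 (-0.27 to 0.06), BAK1 at -0.04 (-0.19 to 0.11) and the survival gene MCL1 at 0.11 (0.01 to 0.21). XIAP, which inhibits caspases, lay at -0.04 (-0.17 to 0.09) on its brightest probe and at -0.21 on another (adjusted p = 0.0343, limma). These intervals excluded a fold of 2 in either direction on the main scale.

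In the remaining 6 lists no member was called (limma). Of their 142 tested entries 27 were higher and 19 lower at an unadjusted p under 0.05, and 17 and 9 after adjustment. By adjusted p alone 12.2% of all genes tested were higher and 7.86% lower, so these counts do not set the lists apart. They held 22 CDK inhibitors and p53 targets, 18 integrated stress genes, 21 oxidative and heat stress genes, 32 replication and mitosis genes, 24 genes of lipid, aryl hydrocarbon receptor, histone deacetylase and transport function, and 25 epithelial and barrier genes. Their medians lay between 0.02 and 0.06. CDKN2B, a CDK inhibitor, came closest at 0.93 and CDKN1A differed by 0.37 (adjusted p = 0.0363, limma). MKI67, the proliferation marker, differed by 0.33 (adjusted p = 0.038, limma) on its brightest probe and by 0.19 and -0.15 on others (adjusted p = 0.352 and 0.621). Among very bright genes, those with a mean level above 7, the median difference was 0.33 over 244 genes, and the keratins KRT18 (0.55) and KRT19 (0.50) lay in that range.

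Of genes above background in TRAIL+SN and on no SN array, the rule for named genes gave IL8, TNFRSF9, CYP2F1, LTB and CACNG8. TNFRSF9, a costimulatory TNF receptor, was at least 5.08-fold higher with TRAIL, and its arrays read -7.08, -5.66, -6.27 and -7.31 in SN and -2.92, -2.90, -3.22 and -3.56 in TRAIL+SN. The cytochrome P450 gene CYP2F1 was at least 3.07-fold higher and the calcium channel subunit gene CACNG8 at least 2.01-fold. After normexp background correction CYP2F1 (0.945), LTB (0.81) and CACNG8 (0.59) fell below the fold limit, and with spike-in scaling CACNG8 did (0.81). SLC45A1, a sugar transporter gene, was the only fall counted as named with no overlap and signal above background on all 8 arrays. It read -3.43, -3.42, -3.74 and -3.68 in SN and -4.25, -4.63, -4.76 and -4.71 in TRAIL+SN, a difference of -1.02 ± 0.26 (adjusted p = 0.00816, limma). The call was lost without SN replicate 1 or 2 or TRAIL+SN replicate 3 or 4 (-0.98 to -0.96), and with replicate pairs averaged (adjusted p = 0.139, limma). The histone demethylase gene KDM4D, SGCE and CCDC88A were above background on every SN array and on no TRAIL+SN array, at least 1.55-fold, 1.23-fold and 1.01-fold lower. With replicate pairs averaged KDM4D (adjusted p = 0.0566, limma) and SGCE (adjusted p = 0.0932) lost their calls. CCDC88A lost its call without SN replicate 2 (-0.94) or TRAIL+SN replicate 4 (-0.93). None of these falls was called after normexp background correction, which called 0 genes lower (limma), also at an unadjusted p under 0.05 with the fold of 2, and 2413 at that p alone.

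TRAIL changed many of the same genes in the other backgrounds. Of the 188 genes that rose, 108 also rose from C3/C2 to TRAIL+C3/C2 (57.4% of the 188 and 32.7% of the 330 that rose there, 1.59% of genes tested). From NT to TRAIL alone 57 also rose (30.3% of the 188 and 36.8% of the 155 that rose there, 0.749% of genes tested). Of the 34 genes that fell, 11 also fell with C3/C2 (32.4% of the 34, beside 2.14% of genes tested) and 4 in untreated cells (11.8%, beside 2.18%). In all 3 comparisons 50 genes rose, and CCDC68 and ZBTB16 were called lower in all 3. The difference was above 0 for 171 of the 188 with C3/C2 and for 161 without either. CCDC68 and ZBTB16 had overlapping groups in SN, and CCDC68 was called there at -1.25 through a single SN array at -3.69 with the others between -6.13 and -5.58. Without that array it was -0.69 and not called, and it also lost its call without TRAIL+SN replicate 2 (-1.16) or 4 (-1.12). ZBTB16 lost its call without SN replicate 1 (-1.0) or TRAIL+SN replicate 2 (-0.97). In each of these comparisons the arrays with TRAIL lay on another slide than those without it.

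**Figure D5:**
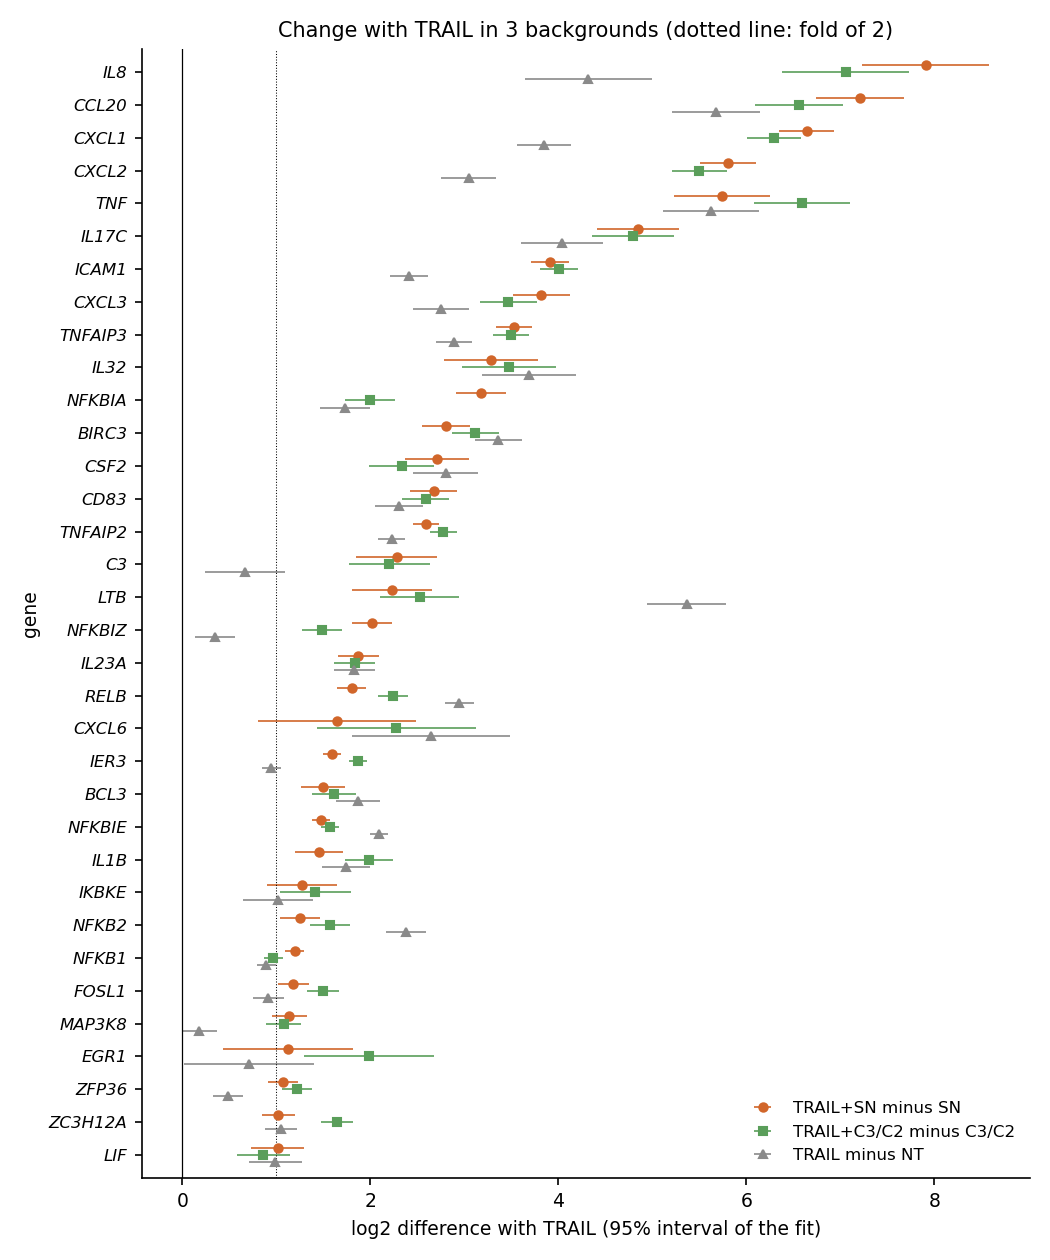
Log2 difference with TRAIL and its 95% interval from the fit (horizontal axis) for the 34 genes called higher in the chemokine, cytokine, NF-κB, immediate early and mucosal defence lists, in SN (orange circles), in C3/C2 (green squares) and in untreated cells (grey triangles). In IL8, CXCL1, CXCL2 and ICAM1 the triangles lie well left of the other symbols, and in RELB and NFKB2 they lie to the right. IL8, LTB and CXCL6 were below background on all SN arrays, so their symbols for SN are fitted values and not bounds.

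The size of the change differed between backgrounds for part of these genes. Against TRAIL in untreated cells, the difference of the changes passed a fold of 2 and an adjusted p under 0.05 in 572 genes upward (2.76% of those tested) and in 69 downward (0.333%). Of the 188 genes, 56 were among the former and 7 among the latter. Since the 188 were picked for their rise in SN, which enters this difference, an excess of the former among them is built in. CXCL1 rose by 6.64 in SN and by 3.85 in untreated cells, 2.79 more (adjusted p = 3.52e-08, limma). CXCL2 rose by 5.81 against 3.04, 2.76 more, and ICAM1 by 3.91 against 2.41, 1.5 more. IL8 was 3.59 more on fitted values, which for a gene below background in SN and in NT are not a bound. NFKBIA rose by 3.18 against 1.73 and NFKBIZ by 2.01 against 0.35.

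RELB and NFKB2 changed less in SN. RELB rose by 2.95 in untreated cells against 1.80 in SN, 1.15 less (adjusted p = 8.86e-07, limma), and NFKB2 by 2.38 against 1.25. In both of these the level with SN alone was higher than in untreated cells, 3.09 against 2.10 for RELB and 0.06 against -1.60 for NFKB2, and the end levels lay close, 4.90 and 5.05 for RELB and 1.31 and 0.78 for NFKB2. LTB rose by 5.36 in untreated cells, from -4.84 to 0.53, and reached -3.95 with TRAIL in SN. Since it was below background in SN alone, its rise there is known only as the bound given above, and a difference in the size of the changes is not shown. TNF had fitted rises of 5.74 and 5.62 (difference 0.12, adjusted p = 0.85), with no NT array above background, and IL23A rose by 1.87 and 1.83 (0.04, adjusted p = 0.882). Of the 155 genes that rose with TRAIL in untreated cells, 98 were not called in SN, and for 31 of these the change in SN tested as smaller. For the rest of the 98 a difference was not shown.

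Against TRAIL in C3/C2, 451 genes changed more upward in SN (2.18%) and 91 less (0.44%). Of the 188 genes 17 were in the former and 7 in the latter, a split that their selection on the rise in SN again favours. Among the named genes NFKBIA rose more in SN, by 3.18 against 2.00 (1.18, adjusted p = 0.000188, limma). Its levels were 3.33 to 4.06 in C3/C2 and 5.60 to 5.83 in TRAIL+C3/C2. Both ranges lay above those given earlier for SN and TRAIL+SN, so the larger rise in SN began from a lower level and did not end higher. CCDC68 fell less in SN (1.92, adjusted p = 0.0191). None of the chemokines called in SN passed this test. CXCL1 differed by 0.35 (adjusted p = 0.272, limma), CCL20 by 0.65 (0.202) and TNF by -0.86 (0.111).

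A contrast in which a shift of slide 4 against slide 3 that is common to all groups cancels was available, since TRAIL arrays shared slide 3 with SN, and TRAIL+C3/C2 arrays shared slide 4 with TRAIL+SN. It subtracts what adding C3/C2 to TRAIL did from what adding TRAIL to SN did. It called 1345 genes above (6.5%) and 2793 below (13.5%), and of the 188 genes that rose 62 were above and 17 below. Here too the rise in SN that picked the 188 enters the contrast, so their split is no separate evidence. CXCL1 was above by 3.72 (adjusted p = 1.96e-12, limma), CCL20 by 2.92, TNF by 2.85, TNFAIP3 by 1.20 and NFKBIA by 1.56, all past the threshold. IL8 and LTB, below background in SN, had fitted values of 5.61 and 4.86, which are not bounds, and for LTB 2.63 of it came from a fall when C3/C2 was added to TRAIL. IL1B lay at -2.96, since C3/C2 raised it by 4.41 in TRAIL-treated cells against 1.45 for TRAIL in SN-treated cells. IER3 lay at 0.04 (adjusted p = 0.674) and C3 at -0.13 (0.738), where C3/C2 moved TRAIL-treated cells as much as TRAIL moved SN-treated cells, 2.41 and 2.28 for C3. BBC3 lay at -1.19, since C3/C2 raised it by 2.24 in TRAIL-treated cells.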

How the data were processed

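RNA of HT29 cells was labelled from an oligo-dT primer and hybridised to Agilent 1-colour arrays. The deposited scanner files hold the intensity of each spot as Agilent Feature Extraction 10.7.3.1 gave it per the file headers, background-corrected by that software and not scaled between arrays, with probe positions on hg19. The processed intensity of 58717 non-control spots was used, with outlier spots set to missing. After log2, each array's 75th percentile was subtracted and spots were averaged to 50599 probes. A probe was kept if the scanner software marked it well above background throughout 1 or more groups (27953 probes), each gene was represented by its brightest probe, and 20700 genes were tested. One model over all 24 arrays with 6 group means was fitted with limma 3.58.1 in R 4.3.3, with 18 residual degrees of freedom and Benjamini-Hochberg adjustment. A call needed a fold of 2 and an adjusted p under 0.05. Intervals are 95% intervals of that model.

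Groups followed the labelled treatment. Replicate numbers were checked as pairs by correlating deviations from the group means between same-numbered SN and TRAIL+SN arrays, which gave 0.25, 0.17, 0.31 and 0.13, so a model with the replicate number as a block was run as well. SN and TRAIL+SN arrays came from separate slides. Named genes were the called members of the 16 lists, every tested member of the death receptor, BCL2 and apoptosome lists, and, leaving out unnamed transcripts, up to 10 of the largest changes in each direction without overlap and above background on all 8 arrays, up to 5 in each direction above background in 1 group only, and up to 8 called in all 3 TRAIL comparisons. In the apoptosome list, 1 gene was counted and is not reported here. Unnamed transcripts were told by their symbols, which also left out genes whose symbols begin with BC or AK. Other list members given with values were picked after their values were seen. The gene lists and the genes described were chosen with earlier results of these data known, and no test was run over a list. Alternatives were scaling by the array median or by spike-in probes, normexp background correction with an offset of 50, no filter and a strict filter on dim probes, the adjusted p alone, the 8 arrays alone, the replicate block, the slide as a random block (statmod 1.5.0), the mean of all probes of a gene, each array left out, and replicate pairs averaged, which was chosen after seeing the data. The fit was tested on simulated data. Promoter sequences came from RefSeq (GRCh38.p14) and were matched by symbol for 69 of the 188 genes that rose. Array number and the spread between arrays limit the precision, and signal near background limits dim genes to bounds. Figures were drawn with matplotlib 3.10.9.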

Additional observations from a re-analysis of the deposited data

Results flagged for a closer look

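In BIRC3 the array SN replicate 3 stood apart from the other SN arrays, at 1.68 against 1.61 to 1.62. This was the single such array in 92 checks of a gene in a group, and chance marks about 1 in 20.

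For the genes that follow, the TRAIL effect in SN differed from the TRAIL effect in untreated cells by a fold of 2 or more with an adjusted p under 0.05 (limma). Values are fitted log2 differences of the changes, which are not bounds where a group was below background (IL8, LTB, TNFRSF9, CYP2F1, SLC45A1, SGCE, KDM4D and CCDC68). The neutrophil chemokines and adhesion molecule were higher in SN, with IL8 at 3.59, CXCL1 at 2.79, CXCL2 at 2.76, CXCL3 at 1.07 and ICAM1 at 1.5. CCL20 was at 1.54 (adjusted p = 0.00168). The inhibitors NFKBIA and NFKBIZ were at 1.45 and 1.67, and the complement gene C3 at 1.61. TNFRSF9 was at 2.43 (adjusted p = 0.00192) and CYP2F1 at 1.81 (adjusted p = 0.0185), both below background without TRAIL.

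The change was lower in SN for RELB at -1.15 and NFKB2 at -1.13. LTB had a fitted value of -3.13, but it was below background in SN alone, so a smaller change there is not shown. SLC45A1 was at -1.81, SGCE at -1.61 (adjusted p = 0.0119) and KDM4D at -1.43 (adjusted p = 0.034). SLC45A1 and SGCE were not above background on any untreated array, and KDM4D on no TRAIL+SN array. CCDC68 fell less in SN, by 1.96 against untreated cells (adjusted p = 0.011) and by 1.92 against C3/C2 (adjusted p = 0.0191). Among the named genes called in SN, NFKBIA also differed against C3/C2, at 1.18 (adjusted p = 0.000188).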

How the results depend on the processing

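The 188 genes higher and 34 lower became 46 and 819 with spike-in scaling, 71 and 0 with normexp correction, 445 and 57 with no filter on dim probes, 122 and 2 with the strict filter, and 2522 and 1626 by adjusted p alone. The normexp setting also gave 0 lower at an unadjusted p under 0.05 with the fold of 2 (limma). With replicate pairs averaged, chosen after seeing the data, 148 and 16 were called. Of the 188, 46 were shared with spike-in scaling, 71 with normexp, 121 with the strict filter and 146 with averaged pairs. Leaving out 1 array gave 162 to 212 higher and 28 to 46 lower. The share of calls that were higher was 84.7%, against 77% with median scaling, 5.32% with spike-in scaling and 100% with normexp. With the replicate block, which changed no call of a named gene, 194 and 36 were called, and with the slide as a random block 179 and 31.

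The difference from the TRAIL effect in C3/C2 was called in 542 genes, in 223 with normexp, 2813 by adjusted p alone, 352 with averaged pairs and 497 to 577 with 1 array left out. The difference from the TRAIL effect in untreated cells was called in 641, in 306 with normexp, 4795 by adjusted p alone and 607 to 694 with 1 array left out. The contrast within slides was called in 4138, in 2126 with normexp, 10914 by adjusted p alone and 4058 to 4213 with 1 array left out. Falls turned to rises under normexp in CCDC68 (0.12), CCDC88A (0.23), KDM4D (0.085), SGCE (0.070) and ZBTB16 (0.27). The cause was not tested. Of 46 named genes that were called, 20 kept their call in every alternative run that tested them. The strict filter tested 85 of all 96 named genes, and a gene it dropped, such as IL8, was not counted as lost.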

Other observations

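The genes in this section lie outside the lists and were chosen after their values were seen, among those called higher. The symbol prefixes counted below were chosen in the same way. Over all genes tested 0.908% were called higher, with a median difference of 0.02. Of 18 tested genes with a TNFRSF symbol 3 were called higher and none lower, with a median difference of 0.27. Beside TNFRSF9 they were TNFRSF4, a costimulatory receptor, at 1.53 ± 0.15 (SE) and TNFRSF6B, a soluble decoy receptor, at 1.27 ± 0.20. In the contrast in which a shared slide shift cancels, TNFRSF4 lay at -2.28, since C3/C2 raised it by 3.80 in TRAIL-treated cells. TNFRSF6B lay at 0.94 there, with a rise of 0.33 from C3/C2. IL4I1, a secreted amino acid oxidase, rose by 2.75 ± 0.11 in SN and by 4.81 in untreated cells, 2.06 less in SN (adjusted p = 1.32e-07, limma). ICAM4, which neighbours ICAM1 on chromosome 19, rose by 2.68 ± 0.22 in SN and by 4.24 in untreated cells. ZC3H12C, a relative of ZC3H12A, rose by 1.59 and the heparan sulfate proteoglycan gene SDC4 by 1.27. RRAD, a small GTPase gene, rose by 2.77 in SN, by 3.95 in C3/C2 and by 1.16 in untreated cells. It lay at -3.54 in that contrast, since C3/C2 raised it by 6.31 in TRAIL-treated cells. ICAM4 lay at 0.21 there (adjusted p = 0.598, limma) and SDC4 at 0.20 (0.354), where C3/C2 had raised them by 2.47 and 1.08. IL4I1 lay at 2.76, and ZC3H12C at 2.55 with a change of -0.96 from C3/C2. With spike-in scaling TNFRSF4 (0.93), TNFRSF6B (0.68), ZC3H12C (0.996) and SDC4 (0.68) fell below the fold limit. IL4I1 (2.16), ICAM4 (2.08) and RRAD (2.17) stayed above it.

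Of 64 tested genes with a HIST symbol 4 were called higher and none lower, with a median difference of 0.46, and of 7 with an RNU symbol 4 were called higher and none lower, with a median of 1.38. Transcripts of both kinds mostly lack a poly(A) tail, and labelling began from an oligo-dT primer. Of the histone genes HIST2H3A rose by 1.86, HIST3H2BB by 1.54, HIST2H4B by 1.08 and HIST1H4F by 1.03. Of the small nuclear RNA genes RNU11 rose by 1.6, RNU6ATAC by 1.53, RNU1-5 by 1.45, RNU2-2 by 1.38 and, outside that prefix, RN7SK by 1.10. In all 9 the TRAIL+SN arrays lay above the SN arrays. So they did in 173 of the 188 genes called higher, from which these were picked, and in 13.9% of all genes tested. Of these 9, HIST2H3A and RNU11 kept a fold of 2 with spike-in scaling, at 1.26 and 1.0. In the contrast in which a shared slide shift cancels, HIST2H3A lay at 1.61 and HIST3H2BB at -0.02, while RNU11 lay at -0.54 and RN7SK at 0.16. Adding C3/C2 to TRAIL had raised them, in that order, by 0.25, 1.56, 2.14 and 0.95, which the contrast subtracts.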
